A study of Homo sapiens with 6 samples.

Results

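The 3 uninduced cultures of the K562 series, those grown without doxycycline, are described here as they stood without the inducer of the hairpins. They were found by the sample labels (treatment without doxycycline) and are 3 of the 6 RNA-seq libraries. K562 is an established human erythroleukaemia cell line that carries the BCR-ABL1 fusion. Each library came from 1 culture of 1 clone, taken at day 4. The clone called NT carried an inducible non-targeting short hairpin RNA, and the clones called c1 and c2 carried inducible hairpins against CDAN1, a gene mutated in a congenital dyserythropoietic anaemia. All clones were kept in 2 µg/ml puromycin, uninduced ones included. The other 3 libraries are the same clones after 4 days of 1 µg/ml doxycycline. They are used only as a second library of each clone, to ask whether a difference between clones recurs and to give the test between clones its error. The sources name no separate cultures beyond the clone, so the libraries of a clone need not be independent. One library a clone means that clone, hairpin and culture cannot be told apart among the uninduced libraries, and each line is 1 clone.

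The uninduced libraries held 28650731 (NT), 30759147 (c1) and 30922566 (c2) estimated reads. TPM, which scales the reads of a transcript by its length and by the library, was summed over the transcripts of a gene, giving 33367 genes. Transcripts that matched no gene held 6.23% to 6.49% of the reads. CDAN1 itself stood at 19.2 TPM in NT, 10.5 in c1 and 16.8 in c2 before induction, and at 22.4, 6.80 and 9.25 in the induced libraries, so the libraries labelled as induced CDAN1 clones held the lowest levels and c1 was already low without doxycycline.

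As background, a red cell precursor devotes much of its transcriptome to ribosomes, to haem and to globin chains. The embryonic and fetal globins (zeta, epsilon, gamma) are replaced during development by the adult alpha and beta chains under factors that include KLF1 and BCL11A. K562 sits at a branch from which erythroid and megakaryocyte cells both arise, the first marked by glycophorins, spectrins and haem enzymes, the other by platelet integrins and the factor FLI1. GATA1 serves both.

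The transcriptome was broad and at the same time top-heavy. Between 11837 (c1) and 12073 (c2) genes reached 1 TPM in a library, and 11200 did so in all 3, of which 10603 were protein-coding. At the upper end, 117 to 123 genes a library stood at 1000 TPM or more. The 100 highest genes held 41.8% of TPM in NT, 42.5% in c1 and 38.7% in c2 (41.0 ± 2.04%, SD, n = 3 clones), and 145 to 197 genes sufficed for 50% of the TPM of matched genes. The clone c2 was the least concentrated of the 3 by each of these measures. Protein-coding genes took at least 91.3% of TPM, processed pseudogenes 0.827% to 1.12% and long intergenic RNAs at most 0.0681%.

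**Figure D1:**
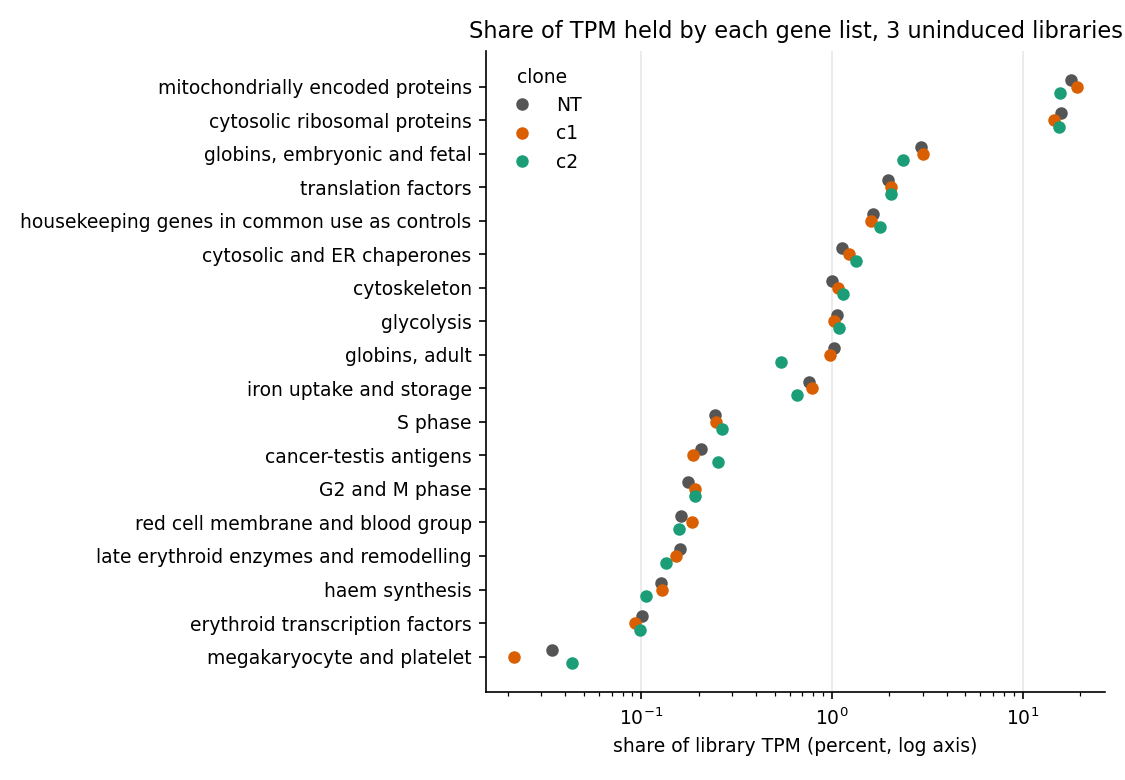
Share of library TPM (percent, log axis) held by each of 18 gene lists in the uninduced libraries of NT, c1 and c2, 1 point a library. Mitochondrially encoded and ribosomal protein genes held 14.6% to 19.1% each, and each other list held less.

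Mitochondrially encoded mRNAs headed the ranking. The 13 genes, subunits of the respiratory chain and ATP synthase, held 18.0% of TPM in NT, 19.1% in c1 and 15.7% in c2, against only 5.22%, 5.72% and 4.34% of the reads. Much of the gap between these shares came from 2 very short transcripts. MT-ATP8, an ATP synthase subunit with a transcript of 207 bases, was given an effective length near 22 bases and stood at 62675, 62914 and 53506 TPM. MT-ND4L, a complex I subunit, has 297 bases and stood at 27958, 32397 and 27924 TPM. Both levels rest on that length correction, and all transcripts under 300 bases together held 8.72% to 10.1% of TPM. The longer MT-CO1, the catalytic subunit of cytochrome oxidase, stood at 10892, 13892 and 10627 TPM. No mitochondrial gene differed between the clones by more than 1 log2 unit, and c2 held no highest value among the 13.

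Translation was the largest nuclear programme. The 76 listed genes of cytosolic ribosomal proteins held 15.9% of TPM in NT, 14.6% in c1 and 15.4% in c2, all of them at 10 TPM or more in every library, with a median of 1942 TPM against 3.69 TPM over all listed protein-coding genes. RPS27 led the list at 5371, 5265 and 5608 TPM, and RPS23 followed at 4072, 3796 and 4209 TPM. The lowest member was RPS26 at 42.3, 42.1 and 47.9 TPM. Low values of single members need care, because reads of a ribosomal protein gene can be shared with its processed pseudogenes: RPL23AP42, annotated as a pseudogene, stood at 2298, 2895 and 4466 TPM. EEF1A1, which delivers transfer RNAs to the ribosome, was the second nuclear gene in rank at 8419, 9083 and 8717 TPM. The 16 translation factors together held 2.02 ± 0.0391% of TPM (SD, n = 3 clones), and all of them stood above 10 TPM.

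Many mRNAs of the translation apparatus start with a 5′ terminal oligopyrimidine tract, a C followed by C or T only, through which their translation is tied to growth signals. RefSeq promoter entries (GRCh38.p14) matched 60 of the 79 ribosomal protein genes sought. In 40 of these 60 (66.7%) the first base was C and the first 5 bases held only C and T, and 42 of 71 matched genes (59.2%) among the 100 highest nuclear coding genes had such a start. The 100 highest include many of the same ribosomal protein genes, so these shares are not independent. Over all 14505 matched protein-coding genes the share was 4.68%, and it was 5.79% among those at 1 TPM or more in all 3 libraries. The starts below, from 10 bases before to 20 bases after the first transcribed base, are those of 5 highly expressed genes with the tract and 2 without it. Capitals mark the pyrimidine run from the first base, or that base alone where it is no pyrimidine, as in PPIA (a prolyl isomerase) and FTL (ferritin light chain), which reach similar levels without the tract.
RPS27: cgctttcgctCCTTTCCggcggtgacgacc
RPS23: cggtgcttctCTCTTTCgctcaggcccgtg
RPLP0: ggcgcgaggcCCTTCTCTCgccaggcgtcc
EEF1A1: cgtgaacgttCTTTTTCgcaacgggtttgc
TPT1: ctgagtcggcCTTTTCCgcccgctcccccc
PPIA: ggctcgtgccGttttgcagacgccaccgcc
FTL: acgtcccctcGcagttcggcggtcccgcgg
The windows lie at chr1:153990752-153990781 (RPS27, plus strand), chr5:82278335-82278364 (RPS23, minus), chr12:120201092-120201121 (RPLP0, minus), chr6:73521013-73521042 (EEF1A1, minus), chr13:45341164-45341193 (TPT1, minus), chr7:44796671-44796700 (PPIA, plus) and chr19:48965299-48965328 (FTL, plus). Mean levels of the first 5 were 5415, 4026, 3321, 8740 and 1188 TPM, those of PPIA and FTL 3575 and 3714 TPM. A start of this kind is a match of letters at the RefSeq start, not a measured start in these cells.

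Output of the beta-globin cluster was mainly embryonic and fetal, while the alpha cluster gave both the embryonic zeta chain and alpha chains. HBG2, a gamma chain, was the highest nuclear gene in each library, at 14048 TPM in NT, 15406 in c1 and 12605 in c2. HBE1, the epsilon chain, stood at 7439, 6680 and 5134 TPM, HBG1 at 4248, 4087 and 3769, and the zeta chain HBZ at 3705, 3841 and 1933. The alpha chain HBA1, which is not confined to adult life, stood above HBZ in each library, at 7550, 7572 and 4350 TPM. Its near-identical copy HBA2 stood at 2678, 2184 and 1020. Reads common to the HBA1 and HBA2 copies, or to the HBG1 and HBG2 copies, are divided by the estimate, so the split within either pair is uncertain. The adult beta chain HBB stood at only 3.40, 0.505 and 4.91 TPM, and delta (HBD) at 23.3, 20.8 and 41.7. The minor theta gene HBQ1 was at 62.4, 53.3 and 50.1 TPM, and the mu gene HBM was under 1 TPM throughout.

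Most globins were lowest in c2. In the alpha cluster on 16p this held for HBZ, HBA1 and HBA2. HBZ differed between the clones with an adjusted p of 7.27e-05, HBA1 with 6.29e-05 and HBA2 with 2.68e-05 (edgeR quasi-likelihood F test of the clone over all 6 libraries, as throughout). The fitted c2 minus NT differences were -0.92, -0.83 and -1.43 log2 units. Over the 54 tested genes of the stretch that holds this cluster, POLR3K to CCDC154, the median of c2 against the other clones was -0.17 (induced -0.22). The part of that stretch in the globin values was not tested. In the beta cluster HBE1 (-0.60, adjusted p = 0.00178), HBG2 (-0.22, adjusted p = 0.00496) and HBG1 (-0.26, adjusted p = 0.0101) were also lowest in c2, by the fitted c2 minus NT difference, whereas HBD was highest there (0.58, adjusted p = 0.00398). The low clone was c1 for HBB (fitted c1 minus NT -2.90, adjusted p = 0.00527) and for HBBP1, the pseudogene between delta and gamma, which stood at 237, 82.2 and 234 TPM. AHSP, the chaperone of free alpha chains, was also low in c1, at 48.9, 7.94 and 53.5 TPM (adjusted p = 6.29e-05). Of the 4 embryonic and fetal globins 4 were called, and of the 4 adult ones 4, where 38.8% of all genes tested were called.

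The erythroid apparatus around the globins was present almost in full. All 9 haem synthesis enzymes stood above 1 TPM in every library, and 8 above 10. UROD led at 536, 543 and 527 TPM and did not pass the clone test (adjusted p = 0.0851). ALAS2, the erythroid first enzyme of the pathway, was about as high in NT (110 TPM) as in c2 (94.0) and higher in c1 (214, adjusted p = 0.000161). Iron handling followed, with FTL at 3636, 4209 and 3297 TPM, FTH1 at 3463, 3256 and 2826, and the transferrin receptor TFRC at 241, 258 and 218.

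Among 12 erythroid transcription factors 11 stood above 1 TPM in all libraries. GATA1 was at 290, 273 and 331 TPM, NFE2 at 210, 201 and 186, KLF1 at 167, 131 and 136, and TAL1 at 65.2, 43.2 and 54.1. The exception was BCL11A, the repressor of the gamma genes, at 0, 0.0201 and 0.341 TPM; its principal transcript was not among those quantified, so a low value cannot be read as absence. None of the 11 tested factors ranged over more than 1 log2 unit between clones, where 18.5% of all genes tested did. The clone test called 7 of the 11, where it called 38.8% of all genes.

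Red cell membrane and blood group genes were at 1 TPM or more in 25 of 28 cases. RHAG, the Rh-associated glycoprotein, stood at 312, 429 and 318 TPM and glycophorin C (GYPC) at 213, 222 and 232. Late erythroid enzymes and remodelling genes were at 10 TPM or more in 11 of 15 cases, with a median of 36.8 TPM against 41.9 in the membrane list. BLVRB, a biliverdin reductase, led them at 565, 497 and 395 TPM. Low members of both lists can be named too. SLC4A1, the band 3 anion exchanger, stood at 5.08, 3.26 and 2.44 TPM, and EPB42, which binds it, at 1.91, 0.166 and 0.674. ALOX15, a lipoxygenase of reticulocyte maturation, was at 0 in NT and c1 and at 0.112 TPM in c2. ACKR1, the Duffy antigen, did not exceed 0.439 TPM.

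GATA factors bind A or T followed by GATA and then A or G. Only the forms ending in A, AGATAA and TGATAA, were sought. Both strands of the 250 bases before each RefSeq start were searched (overlapping matches were allowed). Sites ending in G were not counted, so the shares below leave them out. Of 48 matched promoters in the erythroid lists (globins, haem enzymes, factors, membrane, late enzymes) 12 (25%) held a match. The 48 include 2 of the 10 globin genes, HBD and HBM. The share was 10.8% over all matched coding genes, 6.85% over those at 1 TPM or more, and 20.6% over those at 0. The megakaryocyte list had 4 of 12. Lists of other lineages went both ways: the liver list had 5 of 9 and the mast cell, basophil and eosinophil list 5 of 9. The granulocyte list had 0 of 13 and the monocyte list 0 of 11. A share of this size is therefore not particular to the erythroid lists. A globin, KLF1, ALAS2 and RHAG promoter are shown over 150 bases before the start, with the matches in capitals, because they belong to a globin, to a globin activator, to the first haem enzyme and to a major membrane protein.
HBD: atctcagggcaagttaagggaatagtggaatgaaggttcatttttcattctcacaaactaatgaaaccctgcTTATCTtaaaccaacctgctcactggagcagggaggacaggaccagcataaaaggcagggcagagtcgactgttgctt
KLF1: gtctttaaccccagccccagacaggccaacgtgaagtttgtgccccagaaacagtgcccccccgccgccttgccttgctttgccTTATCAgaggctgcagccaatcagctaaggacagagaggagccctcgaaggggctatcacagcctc
ALAS2: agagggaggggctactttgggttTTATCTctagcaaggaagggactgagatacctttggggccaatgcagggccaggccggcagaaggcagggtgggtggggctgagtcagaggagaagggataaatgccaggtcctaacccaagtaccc
RHAG: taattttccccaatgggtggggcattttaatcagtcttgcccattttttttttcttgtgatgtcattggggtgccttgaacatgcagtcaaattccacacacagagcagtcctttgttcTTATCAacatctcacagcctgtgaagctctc
These windows are chr11:5234484-5234633 (HBD), chr19:12887202-12887351 (KLF1), chrX:55030978-55031127 (ALAS2) and chr6:49636840-49636989 (RHAG), all on the minus strand of GRCh38.p14, and the match begins 78, 66, 127 and 31 bases before the start. The 4 genes ranged in mean level from 28.6 TPM (HBD) to 353 TPM (RHAG). Neither AGATAA nor TGATAA was found in the same 150 bases before the starts of GATA1, GYPB and GYPC. The windows of KLF1, GYPB and GYPC also hold a form ending in G, which was not counted. Binding was not measured in this series.

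Signalling and growth genes were uniformly present. All 17 members of the list around BCR-ABL1 and STAT5 stood above 1 TPM. PIM1, a kinase induced by STAT5, was at 347, 259 and 276 TPM, the adaptor CRKL at 160, 181 and 159, STAT5A at 107, 66.6 and 106, and the erythropoietin receptor EPOR at 22.6, 24.6 and 15.8. The tables give BCR and ABL1 separately and do not resolve their fusion. All 20 S phase genes exceeded 10 TPM, led by the helicase subunit MCM7 at 289, 272 and 362 TPM. Of 20 G2 and M phase genes 19 did, led by cyclin B1 (CCNB1) at 225, 270 and 244 TPM. The exception, UBE2C, stood at 0.744, 1.44 and 0.863 TPM. All 18 glycolysis genes were above 10 TPM, with aldolase A (ALDOA) at 2387, 2385 and 2353. None of these 4 lists had a member with a range over 1 log2 unit between the clones.

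Other lineages were mostly silent, as the plot of list levels shows. The haem, erythroid factor, membrane, late erythroid and iron lists have medians of 32.3 TPM or more, and the 2 minor globins one of 27.9 TPM. The lists for granulocytes, monocytes, B cells, T cells, muscle and liver have medians under 0.1 TPM. Of 16 granulocyte genes only AZU1, an azurophil granule protein, was at 1 TPM or more in every library (2.03, 1.26 and 1.16), and the proteases ELANE and CTSG were at 0 in all 3. Of 15 monocyte genes 3 were at 1 TPM or more: lysozyme (LYZ) at 77.8, 77.7 and 84.6 TPM, CD68 at 43.6, 19.1 and 44.5, and the factor SPI1 at 13.4, 8.43 and 22.7. The receptors CSF1R and CD163 stayed under 0.1 TPM. Among stem and progenitor genes MYB stood at 91.7, 74.7 and 81.3 TPM, whereas CD34 did not exceed 0.0604 and PROM1 was at 0.

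**Figure D2:**
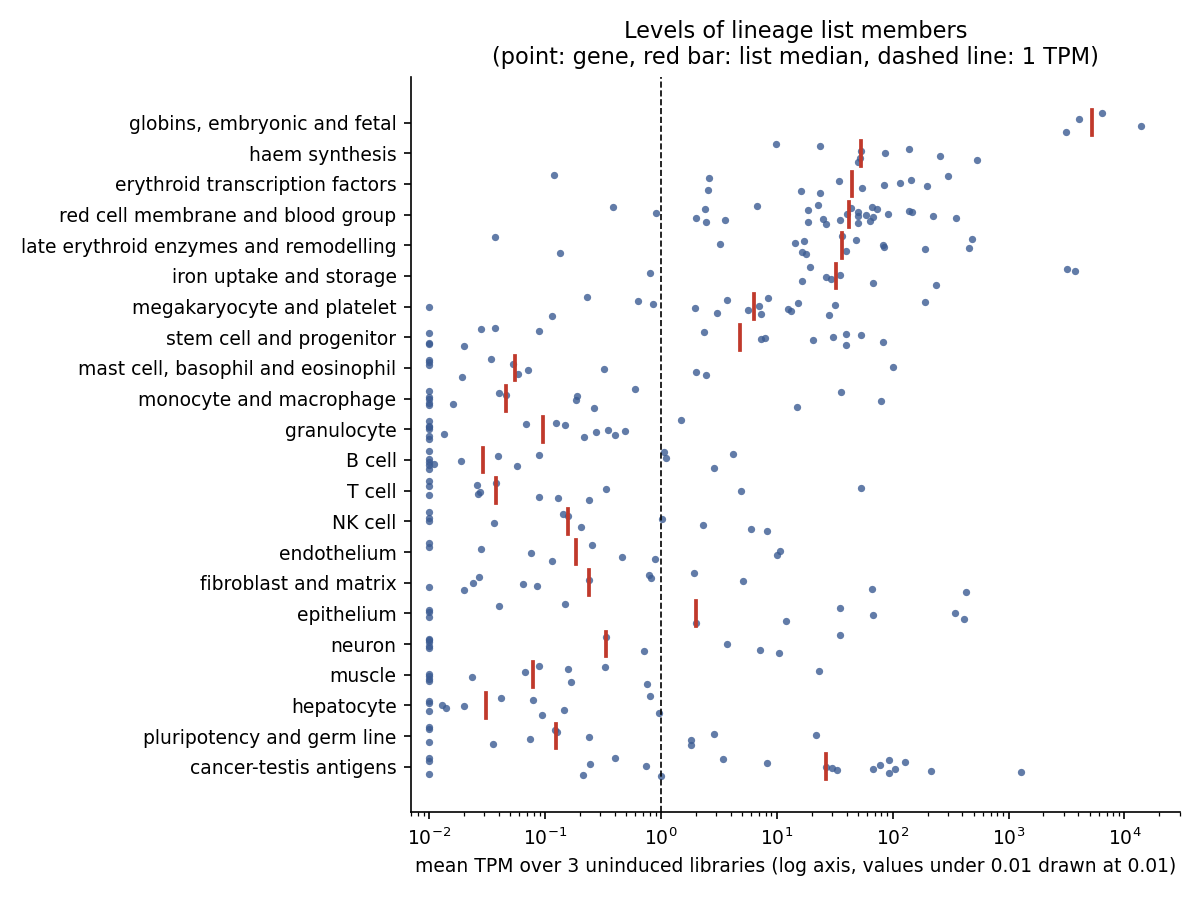
Mean TPM over the 3 uninduced libraries (log axis, values under 0.01 drawn at 0.01) for each member of 22 lineage lists, with the list median in red and 1 TPM dashed. Erythroid lists lie to the right of 10 TPM at their median, while granulocyte, monocyte, lymphocyte, muscle and liver lists lie to the left of 1 TPM apart from single genes.

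Some genes of foreign lineages were well expressed. CD3D, a chain of the T cell receptor complex, was at 52.5, 68.5 and 39.0 TPM and its neighbour CD3G at 2.18, 11.9 and 0.544, whereas CD3E, CD8A, LCK and CD247 were all under 1 TPM. The intermediate filament DES, a muscle marker, stood at 18.8, 25.2 and 24.9 TPM with MYOD1 and MYOG at 0. The simple-epithelium keratins KRT8 (469, 423 and 335 TPM) and KRT18 (330, 367 and 336) were high, and EPCAM reached 44.6, 37.9 and 22.3, among 5 of 11 epithelial genes at 1 TPM or more, while KRT5 and KRT14 were at 0 and CDH1 at most 0.294. GAD1, which makes the neurotransmitter GABA, was at 23.2 TPM in c1, the lowest, and 53.9 in c2, the highest, with SNAP25, MAP2 and STMN2 at 0. It was not alone in its list: TUBB3, a neuronal tubulin (8.04 TPM in c1, the lowest), the synaptic vesicle protein SYP (5.28, 9.43 and 6.96) and the glutamate transporter SLC17A7 (2.30, 3.17 and 5.74) were also at 1 TPM or more in every library, 4 of 11 members in all. No liver gene of 12 was at 1 TPM or more in all 3 libraries, and albumin (ALB) did not exceed 0.0937.

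Cancer-testis antigens, normally kept to the germ line, had a list median of 26.5 TPM. PRAME stood at 1200.1, 1249 and 1387 TPM. All other listed members lie on the X chromosome. PAGE5 was at 202, 123 and 315 TPM, SSX1 at 68.4, 76.5 and 134, and MAGEC2 at 59.7, 73.8 and 68.9, and 10 of 21 were at 10 TPM or more in every library. CTAG1B and SSX2 were at 0. Members of these families are near-identical copies between which the estimate divides reads, so single levels are uncertain.

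HLA genes were at or near 0, with a limit on what this shows. HLA-C and HLA-G were at 0 in all 3 libraries, HLA-B stood at 0.216, 0.187 and 0.966, and no class II gene reached 1 TPM, whereas B2M, the class I light chain encoded on chromosome 15, was at 897, 651 and 1002. The limit is the transcript set: of 181 protein-coding genes annotated in the MHC region of chromosome 6 only 127 were listed, and 50 of those (39.4%) were at 0 in all 3 libraries, against 15.8% of all listed coding genes. HSPA1A, a heat shock gene in the same region, was also at 0.

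Of 19165 protein-coding genes listed 3032 (15.8%) had an estimated count of 0 in all 3 libraries, and 5530 more had reads but did not reach 1 TPM in every library. A count of 0 leaves room for up to 3 reads, or 0.0970 to 0.105 CPM in these libraries, and covers counting error only. Some families were silent in most members. Olfactory receptors were at 0 in 292 of 348 cases, keratin-associated proteins in 78 of 86, beta-defensins in 33 of 35 and type I interferons in 16 of 16. Of 52 clustered protocadherins none reached 1 TPM. At the other end, 75 of 76 mitochondrial ribosomal proteins and 35 of 37 proteasome subunits were at 1 TPM or more, as were 375 of 503 genes named ZNF. Among HOX genes 9 of 39 were at 1 TPM or more: HOXB9 stood at 74.2, 64.3 and 82.2 TPM and HOXB2 at 31.1, 36.4 and 36.4, while HOXA9 did not exceed 0.0221.

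Silence was arranged in runs along the chromosomes. There were 32 runs of 10 or more neighbouring coding genes that stayed under 0.1 TPM in all libraries. The longest held 53 genes on chromosome 11, from OR4B1 to LRRC55 (chr11:48216810-57191717, GRCh38), of which 47 were olfactory receptors, and all 53 were at 0. The next were 38 keratin and keratin-associated genes on chromosome 17, from KRT40 to KRT13 (chr17:40977716-41505705), and 34 genes of the epidermal cluster on chromosome 1, from TCHHL1 to SPRR1B. A run of 25 genes lay on 9p21 (chr9:20999515-25678440), from HACD4 to TUSC1, with 23 at 0. It covers the type I interferons and the cell cycle inhibitors CDKN2A and CDKN2B, both at 0, and MTAP, the methionine salvage enzyme usually found in every cell, at 0.0611, 0.0325 and 0.0397 TPM. FOCAD on its near side averaged 0.557 TPM and CAAP1 on its far side 9.58 TPM. Gene copy number was not measured here.

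The beta-globin cluster was an island within olfactory receptor genes. OR51B4 stood at 59.8, 46.0 and 50.7 TPM and OR51B5 at 40.2, 26.0 and 31.2, where the olfactory receptor family had a median of 0. OR51B4 lies at chr11:5301014-5301946 and OR51B5 at chr11:5303444-5505652, upstream of HBE1 on the same minus strand. The annotated extents of HBE1 (chr11:5268345-5505652) and HBG2 (chr11:5253190-5505605) run through both, so reads of long globin transcripts and of the receptors cannot be told apart. On the other side of the cluster, OR51V1 stayed at or under 0.0560 TPM, and within the same stretch OR51B6 on the opposite strand stood at 0.582, 0.0554 and 0.170 TPM.

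Well expressed genes seldom ranged widely between clones, although many differed by small amounts. Stability was measured as the SD over the 3 uninduced libraries of log2 CPM, the count as a share of the library after TMM scaling, on a log2 scale. Over 2667 coding genes with a mean of 50 TPM or more the median SD was 0.12 log2 units (10th to 90th percentile 0.04 to 0.29), against a median of 0.02 for counting noise alone. The SD was under 0.1 in 997 (37.4%), and 45 (1.69%) ranged over more than 1 log2 unit. The clone test called 1222 of them (45.8%), against 38.8% of all genes tested. The steadiest were EEF1G, an elongation factor subunit at 1661, 1693 and 1781 TPM, HMGB1, a chromatin protein at 481, 435 and 527, PRPF8, the core of the spliceosome at 91.6, 93.8 and 97.9, and DIABLO, a mitochondrial apoptosis factor at 78.3, 80.4 and 81.6. RPS14, CCT7, FBL, APRT, TMCO1 and NARS completed the first 10. A rank this fine is not secure with 3 libraries. HMGB1 varied more in TPM than in scaled counts.

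Genes in common use as controls were not all steady. PPIA (3296, 3496 and 3934 TPM), GAPDH (2319, 2283 and 2434) and TBP (40.7, 39.5 and 37.5) had SDs of 0.04, 0.04 and 0.07 log2 units and did not pass the clone test (adjusted p = 0.617, 0.865 and 0.487, edgeR). ACTB stood at 1920, 2097 and 2470 TPM with an SD of 0.14 (adjusted p = 0.0135). Larger spreads were seen for SDHA at 162, 109 and 172 TPM (SD 0.36, adjusted p = 0.000198), HPRT1 at 63.5, 96.5 and 78.9 (SD 0.29) and B2M (SD 0.29). POLR2A had a larger SD still (0.67) at 3.51, 8.06 and 6.86 TPM, but did not pass the test (adjusted p = 0.0636). Of the 16 control genes 11 were called, against 38.8% of all genes tested and 45.8% of coding genes at 50 TPM or more.

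Between any 2 uninduced clones 10.4% to 11.9% of genes differed by more than 1 log2 unit. Between the uninduced and the induced library of a single clone 3.19% to 4.45% did. The highest and lowest of the 3 uninduced libraries lay more than 1 log2 unit apart for 2605 of 14075 genes (18.5%). The clone test, which takes its error from the spread within clones after a common doxycycline term and has 2 residual degrees of freedom, called 5463 of 14075 genes (38.8%), and 6999 had an unadjusted p under 0.05. Without the 2 induced CDAN1 shRNA libraries and without the doxycycline term 895 of 14370 were called. Low genes ranged more: the median range was 0.69 log2 units at 1 to 5 TPM and 0.22 at 1000 TPM or more. Among the called genes the clone farthest from the other 2 was c1 in 2269, NT in 1603 and c2 in 1591.

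Most of the widest ranges belonged to genes that were on in 1 clone and off in another. S100A6, a calcium-binding protein, stood at 51.6 TPM in NT and 49.6 in c2, with 520 and 507 reads, and had no read in c1 before or after induction (adjusted p = 1.28e-05, edgeR). TWIST1, a mesodermal transcription factor, was at 20.5 TPM in NT against 0.135 in c1 and 1.51 in c2. LIN28A, a fetal RNA-binding protein that blocks let-7, was the reverse, at 0.381 in NT against 21.8 in c1 and 43.4 in c2, while its relative LIN28B was at 26.6, 34.7 and 30.5. Other genes with a wide range were low rather than off. WAS, an actin regulator of blood cells, stood at 1.76 and 2.34 against 42.8 TPM in c2, and FN1, fibronectin, at 2.14, 11.8 and 1.35.

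**Figure D3:**
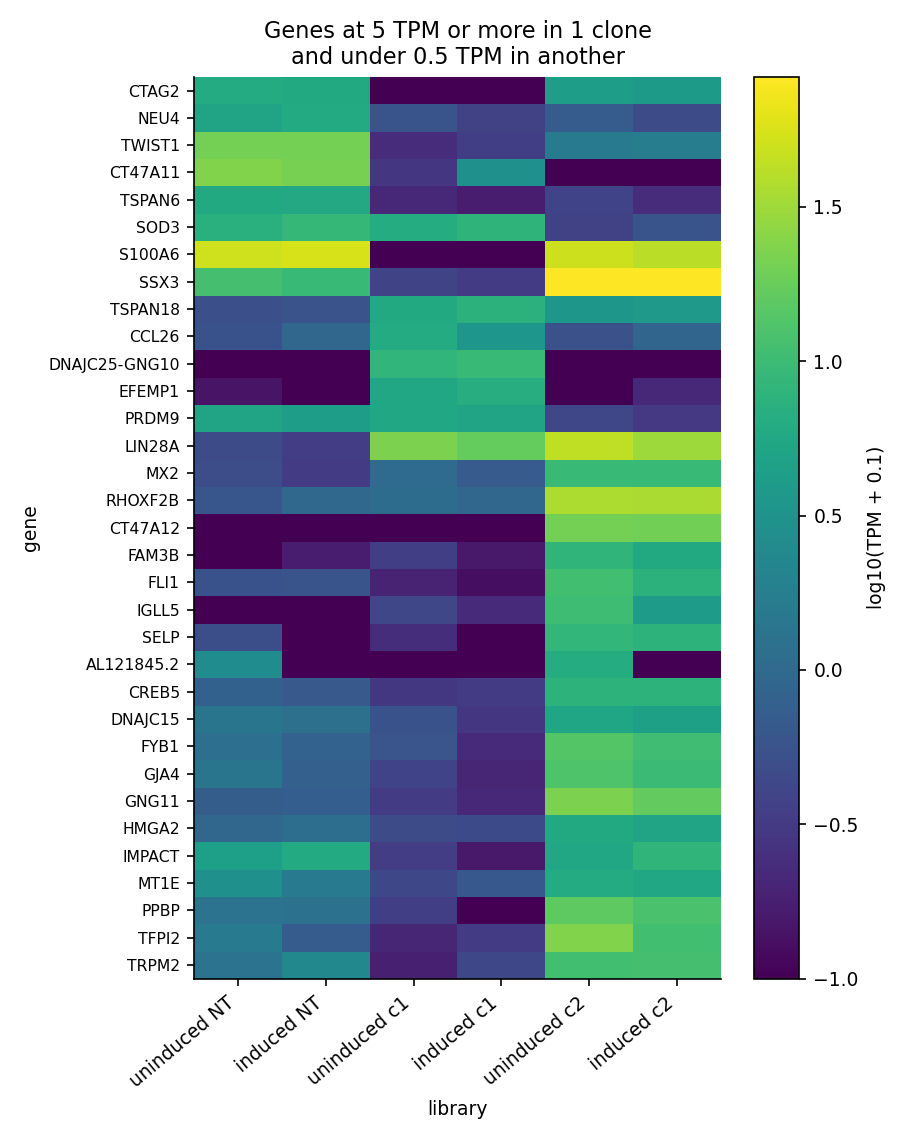
Levels, as log10(TPM + 0.1), of the 33 coding genes at 5 TPM or more in 1 uninduced clone and under 0.5 TPM in another, in the uninduced and induced library of each clone. The 2 libraries of a clone look alike in most rows, and 25 of the 33 keep both limits in the induced libraries. The genes also had to be called by the test over all 6 libraries, which favours such likeness.

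A rule was chosen after the values were seen: 5 TPM or more in 1 uninduced clone, under 0.5 TPM in another, and called. By it 33 coding genes were on in 1 clone and off in another. In 19 of them c2 alone reached 5 TPM, and in 17 c1 alone was under 0.5 TPM. The same limits held in the induced libraries for 25 of 33. That recurrence is no separate support, because the call uses all 6 libraries and favours genes whose induced and uninduced libraries agree. The X chromosome held 6 (18.2%), against 3.81% of tested coding genes. Of those 6, 5 are germ line genes of the cancer-testis or reproductive homeobox kind: SSX3 (11.2, 0.302 and 81.4 TPM), CTAG2 (6.16, 0 and 4.17), RHOXF2B (36.2 TPM in c2, under 1 in the others), CT47A11 (23.5, 0.189 and 0) and CT47A12 (0, 0 and 20.1). The last 2 are near-identical copies and each was seen in a different clone, so their split is uncertain. PAGE2 narrowly missed the limits, at 26.1, 0.584 and 72.9 TPM.

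Promoters of these genes were poorer in the letters CG than those of genes expressed in all 3 clones. Over the 300 bases of the RefSeq entries (GRCh38.p14, 250 before to 50 after the start) the count of CG had a median of 11 in the 17 that matched (quartiles 5 and 24). The median was 27 in 7016 genes at 5 TPM or more in all 3 libraries (quartiles 20 and 35), and 23 over all 14505. In 2102 coding genes at 0 in all 3 libraries it was 5, so a low count is not particular to the genes that differ between clones. The range among the 17 was wide. The 150 bases before the start are shown, with each CG in capitals, for S100A6 and PAGE2, both off or nearly off in c1. S100A6 is among the 33 genes, whereas PAGE2 missed the limits and is not among the 17. Over 300 bases S100A6 held 31 CG and PAGE2 13, so PAGE2 is poorer than S100A6 but lies above the median of 11.
S100A6: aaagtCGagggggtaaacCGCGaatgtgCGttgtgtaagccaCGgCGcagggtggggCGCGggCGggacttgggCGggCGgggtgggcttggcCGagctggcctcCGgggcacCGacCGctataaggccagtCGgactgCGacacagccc
PAGE2: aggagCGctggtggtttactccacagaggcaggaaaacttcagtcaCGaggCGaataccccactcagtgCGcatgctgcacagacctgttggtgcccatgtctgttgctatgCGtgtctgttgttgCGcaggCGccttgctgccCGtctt
The windows are chr1:153535992-153536141 (S100A6, minus strand) and chrX:55088868-55089017 (PAGE2, plus strand), and hold 17 and 8 CG. Methylation was not measured in this series.

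The megakaryocyte list had wide ranges between the clones. All 16 tested members of the 18-gene list were called (against 38.8% of all genes tested). Of these 16, 13 ranged over more than 1 log2 unit, 14 were highest in c2 and 14 were lowest in c1 on the log2 CPM scale. The median range was 3.57 log2 units, against 0.38 over all tested coding genes. A gene could pass the low-count filter through the libraries of 1 clone alone, which favours wide ranges and calls. The list was also chosen with earlier results of these data known, so these counts describe it and are no separate support. FLI1, the megakaryocyte factor, stood at 0.449 TPM in NT, 0.0929 in c1 and 10.7 in c2 (adjusted p = 1.13e-05, edgeR). ITGA2B, the platelet integrin alpha IIb, was at 17.1, 6.29 and 72.5 TPM, and its partner ITGB3 at 3.32, 2.11 and 15.6. The platelet chemokine PPBP was at 1.21, 0.246 and 15.6, P-selectin (SELP) at 0.397, 0.142 and 8.61, and pleckstrin (PLEK) at 2.46, 1.07 and 34.2. The endothelial and platelet adhesion molecule ESAM was also highest in c2, at 3.95, 1.06 and 26.7. Of 7 tested endothelial markers 6 were highest in c2 and 4 were called, and the 10 listed markers summed to 43.2 TPM in c2 and to 12.3 or less in NT and c1, with CDH5 and EMCN at 0. VWF is in both lists, and the same filter applies to the endothelial one. The part of the endothelial markers in the megakaryocyte values was not tested. Exceptions were GP1BB (250, 150 and 171 TPM) and GP6, both highest in NT.

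In the induced libraries of NT, c1 and c2, FLI1 was at 0.468, 0.0296 and 7.52 TPM and ITGA2B at 14.8, 5.29 and 66.7. For both genes c2 was again the highest and c1 the lowest. The lower alpha globins of c2 stood beside this pattern, with HBA1 at 8488, 8637 and 5137 TPM in the induced libraries, while the 11 tested erythroid factors ranged over 0.06 (LMO2) to 0.61 (GFI1B) log2 units between the uninduced clones. Whether every cell of c2 or a part of the culture held these transcripts cannot be told apart in bulk RNA.

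**Figure D4:**
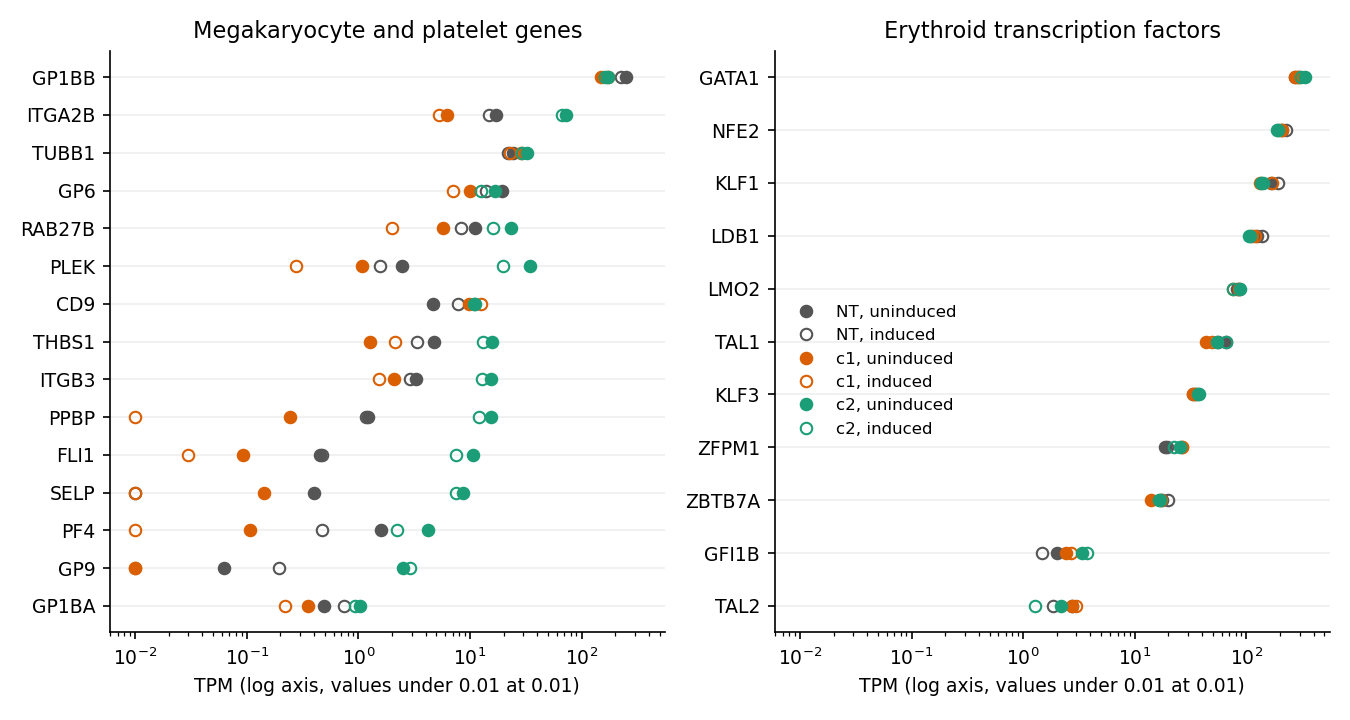
TPM (log axis, values under 0.01 drawn at 0.01) of the megakaryocyte and platelet genes and erythroid transcription factors that reached 1 TPM in at least 1 uninduced library, in NT, c1 and c2, filled for uninduced and open for induced libraries. Most megakaryocyte genes lie to the right in c2. GP1BB and GP6 are highest in uninduced NT, and the clones lie close together for TUBB1 and CD9, while the factors from GATA1 to ZBTB7A overlap.

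Part of the clone differences followed chromosomes. Over 492 tested genes of chromosome 15 the median of c1 lay 0.47 log2 units below the mean of NT and c2, 72.0% of their level, and in the induced libraries it lay at -0.50. All 9 consecutive blocks of about 50 genes were low in c1, at -0.54 to -0.43 uninduced and -0.55 to -0.47 induced. All other chromosome medians of a clone in the uninduced libraries fell between -0.12 and 0.28. The lowest library was c1 for 77.0% of the chromosome 15 genes, and 342 of the 492 (69.5%) were called. Away from chromosome 15, 5116 of 13565 autosomal and X-linked genes (37.7%) were called. Named genes show the shift: RPL4 stood at 3578, 2260 and 3616 TPM, RPLP1 at 2305, 1331 and 2105, B2M at 897, 651 and 1002, and the mitotic cyclin CCNB2 at 104, 80.9 and 119. CDAN1 lies on the same chromosome (chr15:42723544-42737128, GRCh38), and its level in uninduced c1 was 10.5 TPM, as given above. Hairpin expression without doxycycline and gene copy number were not measured, and their parts in that level were not tested.

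**Figure D5:**
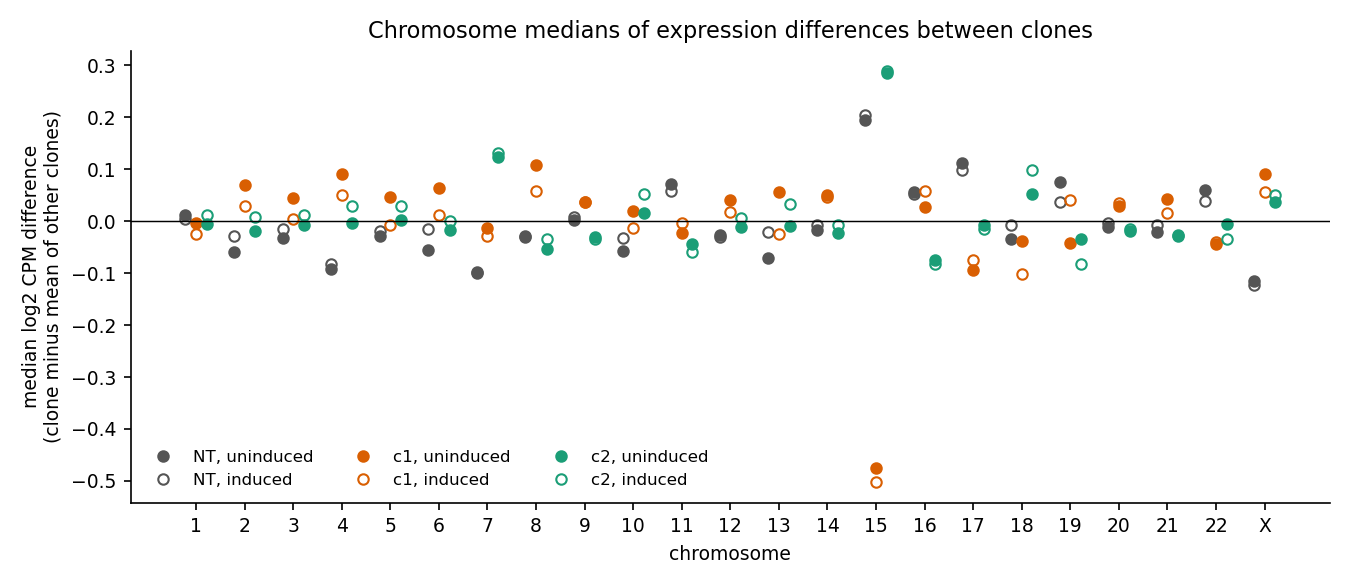
Median over tested genes of the log2 CPM difference between a clone and the mean of the other clones, by chromosome, filled for uninduced and open for induced libraries. Chromosome 15 of c1 lies near -0.5 in both, apart from all other points, which lie between -0.12 and 0.29.

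Smaller stretches were shared by the uninduced and the induced library of a clone. Each clone had a value for each of 271 blocks. Outside chromosome 15 of c1, 42 of these values exceeded 0.25 log2 units in size in the uninduced libraries. Of the 42, 29 did so in the same direction in the induced libraries as well. Of the 42, 9 lie on chromosome 15, where the other clones are read against a mean that includes c1. Elsewhere too a clone is read against the mean of the others, so the same stretch can be counted again with the opposite sign. The block from RHOXF2B to SAGE1 stood at -0.35 in NT and 0.33 in c1, and that from TTYH2 to EXOC7 at 0.55 in NT and -0.40 in c1. The distal long arm of chromosome 17 was high in NT, with 0.55 log2 units at the block from TTYH2 to EXOC7 (induced 0.50). The adaptor GRB2 in that block stood at 76.2, 48.6 and 57.0 TPM. In the next block, from RNF157 to TEPSIN, c2 was low (-0.38, induced -0.33), and thymidine kinase TK1 there stood at 166, 167 and 124 TPM. The short arm of chromosome 5 was low in c1 over its first 2 blocks (-0.40 and -0.33, induced -0.44 and -0.47), and SDHA lies in the first. The tip of chromosome 10 was high in c2 (0.35, induced 0.36), where phosphofructokinase PFKP stood at 82.7, 65.8 and 114 TPM. On the X chromosome the block from RHOXF2B to SAGE1, which holds HPRT1, was low in NT (-0.35, induced -0.32). Several control genes with a large spread lie in stretches that differ between clones as a whole. Copy number was not measured, and its part in these stretches was not tested.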

How the data were processed

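The authors estimated transcript abundance with Salmon 1.5.2 and named GRCh37 (hg19), per the submitters' processing notes. Each deposited table lists 167268 transcripts with an estimated count (expected count) and TPM, per the file headers. The sources used here do not state strand or trimming. Clones follow the sample titles; the deposited table of c2 carries the clone number 3 in its name, and the reason is not known.

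Identifiers matched GENCODE 29 for 151039 transcripts (90.3%). Their TPM and estimated counts were summed to 33367 genes, and the counts rounded. Coordinates are GRCh38.

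The clone was tested with edgeR 4.0.16 in R 4.3.3 (quasi-likelihood F test over 6 libraries with a doxycycline term, TMM, filterByExpr with a minimum count of 10, Benjamini-Hochberg adjustment at 0.05, differences in either direction). The test was also run on simulated data, drawn as independent libraries with no doxycycline effect. That run cannot show how the test behaves where the libraries of a clone depend on each other. Log2 CPM used a prior count of 2. Nothing in the sources names separate cultures beyond the clone, so p-values measure the spread between these libraries. Alternatives were other scalings, filters and tools (DESeq2 1.42.0, limma 3.58.1 voom), other TPM minimums, and each library left out.

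Genes named are members of the 37 lists and, by fixed rules, the highest, the steadiest (mean of 50 TPM or more), and the widest-ranging or farthest in 1 clone (mean of 5 TPM or more). OR51B4, HBBP1, RPL23AP42, the HOX genes and the neighbours of silent runs were named after their values were seen. The lists and members were chosen with earlier results of these data known. A few list members are not reported here.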

Additional observations from a re-analysis of the deposited data

Results flagged for a closer look

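Reads of transcripts that matched no gene of the annotation took no part in the comparisons. They held 6.40% of the estimated reads of the uninduced NT library, 6.23% of c1 and 6.49% of c2, far above what a count of 0 allows. The shares were 6.42%, 6.32% and 6.84% of TPM.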

How the results depend on the processing

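Of 153 values recomputed under alternatives 133 stayed within their limits. The count of 5463 genes that differed between clones fell to 3551 with transcript lengths as an offset, and to 2686 of 18621 features with unmatched transcripts kept. It was 895 without both induced CDAN1 shRNA libraries and without the doxycycline term, an alternative added after the data were seen; 864 of these were among the 5463. Leaving out 1 library gave 4251 to 5032, limma voom 5519 and DESeq2 4257. The 2605 genes with a range over 1 log2 unit became 4950 with no filter on low counts and 1462 to 1675 with 1 uninduced library left out, as fewer libraries give smaller ranges. The share of TPM in the 100 highest genes, 41.0%, was 19.0% as a share of reads, 35.6% without transcripts under 300 bases, 43.9% over matched genes only and 33.0% without mitochondrially encoded genes (added after the data were seen). Leaving out 1 library gave 40.3% to 42.2%. Of 111 list values 9 moved, all by 1 or 2 genes. No paired analysis was possible because the clone, which pairs the induced with the uninduced libraries, is the factor tested. The cause of these shifts was not tested. With 1 uninduced library a clone, depth limits low genes most.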
